A study of Triticum aestivum with 4 samples.

Results

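The entry of wheat crowns into winter was examined by comparing 2 of the 4 small RNA libraries of the study, the three-leaf library and the winter dormancy library, over all 348 miRNAs of the expression table. Of these, 312 were listed above 0 in at least 1 of the 2 libraries, 244 in both, 31 at the three-leaf stage only and 37 at the winter dormancy stage only. Both libraries came from crowns of Shimai 22, a semi-winter wheat (Triticum aestivum) cultivar that was raised in an open field with no treatment other than the season itself. For each stage, total RNA of 3 biological replicates was mixed in equal parts before the library was made. The replicates therefore cannot be separated, and a difference between stages has no replicate check in the sequencing. The study also measured some of the miRNAs by qRT-PCR, which was not used here. The spring green-up and jointing libraries, made in the same way, stand beside the comparison as description. The table holds miRNAs alone, so the crown tissue could not be checked against marker genes, and a miRNA held by fewer cells cannot be told apart from one that is less abundant per cell.

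The crown is the short stem base at or below the soil surface. It holds the shoot apical meristem and the axillary buds from which a winter cereal regrows in spring, and it is the organ whose survival decides winter survival. A plant miRNA is a short RNA that guides an Argonaute protein to transcripts with a nearly complementary site and leads to their cleavage or to less translation. Several conserved families set the timing of phase change, the response to auxin, the shape of the meristem and the use of copper and other nutrients.

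A miRNA was called higher or lower when it differed by more than 2-fold and exceeded 5 RPM in at least 1 of the libraries, where RPM is tags per 1000000 mapped reads. Sequences of the miRNAs on which the comparison turned are given first, as listed in the deposited table, from 5′ to 3′ with the seed (bases 2 to 8) in capitals. The 8 miRNAs that were listed in both libraries and higher at the winter dormancy stage, shown because they carry the increase, were:
miR528-5p: uGGAAGGGgcaugcagaggag
miR1023a-3p: gGAUAUGAauggagagagcgcu
miR169a-5p: cAGCCAAGgaugacuugccga
miR1133: aUACUCCCuccguccggaaauacu
miR5060: cGGCAAGCuagagacagcaac
miR156a-5p: uGACAGAAgagagugagcaca
miR7782-3p: aCCUGGCUcugauaccacuguugg
wheat_miR450: uUUUCUCUauaaacuugguca

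The 18 miRNAs that were listed in both libraries and lower at the winter dormancy stage, shown because they carry the decrease, were:
miR9484: aUGUAGGCaagggaagucggca
miR3630-5p: aCAAAUGAugauagcaagaca
miR394a: uUGGCAUUcuguccaccucc
miR5077: uUCACGUCggguucaccaug
miR530-3p: aGGUGCAGuggcauaugcaac
miR319b-3p: uUGGACUGaagggugcucccu
miR894: gUUUCACGucggguucacca
miR5368: aGGGACAGucucagguagaca
miR160a-5p: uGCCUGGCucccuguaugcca
miR9774: cAAGAUAUuggguauuucuguc
miR3630-3p: uAUAAUGGgaaucucucugauguu
miR2199: aUAACUCGacggaucgcacggccu
miR5139: cGAAACCUggcucugauacca
wheat_miR810: aUGCCGUGuuguucugaaagaa
miR1846a-5p: aGUAGGAGggcgcggcggccgcu
miR393b-3p: uCAGUGCAaucccucuggaau
miR530-5p: cUGCAUUUgcaccugcaccua
miR9653a-3p: uUUGAGACuuuggccauggcc

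Among the miRNAs listed at 0 in one of the libraries, the most abundant and those of conserved families are shown because most calls were of this kind. Those at 0 at the three-leaf stage were:
wheat_miR1560: uAAACCUUcacaaauucccuug
miR8135: aAUAUAUUugcagguuugagg
miR5387b: gUGGCACGaaccgguacuaaaggu
wheat_miR1826: aGACGAGGgugaucauaaacu
miR5241a: uAUGAAUGgagagagcgcugua
miR394b-3p: aGGUGGGGaugacgucaagu
miR156h-3p: gCUCACUGcucuuccugucauc
Those at 0 at the winter dormancy stage were:
miR5240: uGUUAAAAauugcggauuuuu
miR5175a: aCAAAUAUuuaggaacggagg
miR7512: gCUACUUUgugucaugcaugacaa
miR165a-5p: cCGAAUUGuagucuggagaggcg
miR5387a: gUGGCACGaaccggugcuaaaggu
miR156d-3p: gCUCACUCcucuuucugucagcc

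Across the 67 called miRNAs there were 65 different seeds. A seed was shared only by miR5387a with miR5387b and by miR7484m with miR9767. Entries with a shifted start differ in seed although most of their sequence is shared, and such overlaps are given further on.

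The values of the wheat_miRNAs, written to 2 decimals, were used to search for the depth at which most values below 60 RPM are whole reads. With a tolerance of 0.0051 RPM, 45 of 45 values were whole at 21674500 mapped reads in the three-leaf library and 46 of 46 at 20533500 in the winter dormancy library, where 20.9% would be at random in the latter. At these depths 3 reads equal 0.138 and 0.146 RPM. The smallest value above 0 was 0.6 RPM, about 13 reads, in the three-leaf library and 0.3 RPM, about 6 reads, in the winter dormancy library. A 0 may therefore stand for more than 3 reads, and a fold against a 0 is a lower bound only if the 0 stands for 3 reads or fewer. Intervals below are exact 95% binomial intervals of the ratio. They cover counting error only, since amplified reads may repeat a molecule and the pooling hides the spread between plants. The listed miRNAs summed to 142826.1 RPM (14.28% of mapped reads) in the three-leaf library and 135687.5 RPM (13.57%) in the winter dormancy library. These totals, and the shares and scalings that rest on them, include miR165a-3p. Its value is a sum of other entries, as described with its family, so those entries are included more than once.

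Most crown miRNAs were within 2-fold between the 2 stages. Of the 252 miRNAs that passed the level filter, 185 (73.4%) were within 2-fold, 26 (10.3%) were higher at the winter dormancy stage and 41 (16.3%) were lower, which gives 67 called in either direction (26.6%). The median log2 change (dormancy over three-leaf) was -0.01, with quartiles at -0.56 and 0.34. Of the 67 calls, 41 rested on a 0 in one library. A miRNA above 5 RPM in one library and at 0 in the other passes the threshold by construction, so those calls and the calls among miRNAs listed in both libraries are given apart. Among the 211 miRNAs that passed the level filter and were listed in both libraries, 185 (87.7%) were within 2-fold, 150 were within 1.5-fold, 8 were higher and 18 were lower, together 12.3%. The counting interval of 48 of the 211 included no change. For 18 of the 26 called miRNAs listed in both libraries the interval lay wholly beyond 2-fold.

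**Figure D1:**
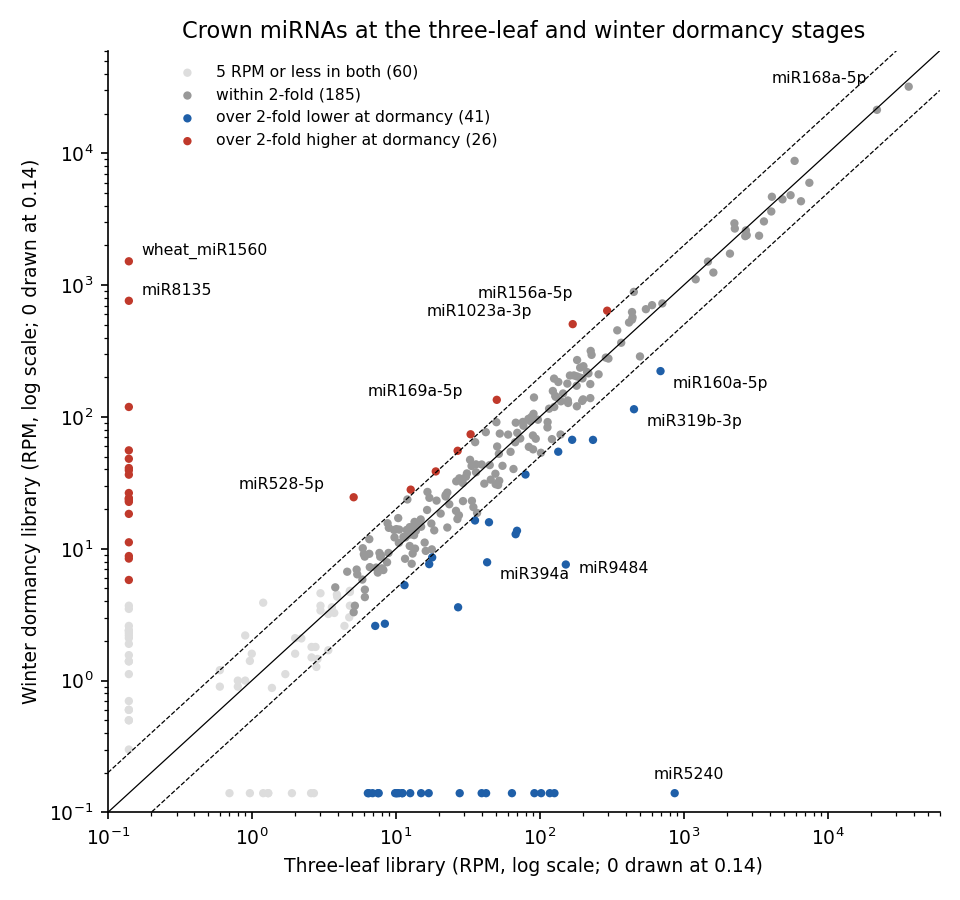
Each point is 1 miRNA, with its RPM in the three-leaf library on the x axis and in the winter dormancy library on the y axis, both on log scales, a 0 drawn at 0.14 RPM, and miRNAs at 0 in both libraries left out. The solid line marks equal levels and the dashed lines 2-fold differences; 185 points above the level filter lie between the dashed lines, 41 lie below them and 26 above them, and the calls that rest on a 0 line the edges.

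Of the 21 miRNAs above 1000 RPM in their higher library, the 20 that were listed in both libraries were within 2-fold, and the other was wheat_miR1560, at 0 in three-leaf crowns. Of 68 miRNAs above 100 RPM in both libraries, 64 were within 2-fold. These counts include miR165a-3p, whose value is a sum of other entries, as described with its family. miR168a-5p, which targets the transcript of ARGONAUTE1 (AGO1), the protein that carries miRNAs, was the most abundant at both stages, with 36517.2 RPM in three-leaf crowns and 32038.5 RPM in dormant crowns (log2 -0.19). miR159a.1, whose targets are GAMYB transcription factors, was next with 21980.1 and 21378.4 RPM (log2 -0.04). The other 8 of the 10 highest by mean RPM were miR5048-5p, miR7757-5p, miR9662a-3p, miR9674b-5p, miR9773, miR5062a, miR171b and miR171a-3p. Over the 10, the log2 change ran from -0.59 for miR9662a-3p (6522.1 to 4329.7 RPM) to 0.57 for miR5048-5p (5891.1 to 8765.7 RPM), and their share of the summed RPM was 70.4% and 68.6%.

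The entry into winter moved fewer miRNAs past 2-fold than the later steps did, by count. Among miRNAs listed in both libraries of a step and above the level filter, 26 of 211 (12.3%) were called from the three-leaf to the winter dormancy stage, 77 of 212 (36.3%) from the winter dormancy to the green-up stage and 84 of 193 (43.5%) from the green-up to the jointing stage. The interquartile range of the log2 changes was 0.72, 1.41 and 1.08 in the same order, and the median was -0.01, -0.30 and -0.60. At the later steps 23 were higher and 54 lower, then 24 higher and 60 lower. The counts were taken on RPM as deposited. The listed miRNAs summed to 135687.5 RPM in winter, 107282.1 RPM during green-up and 68949.9 RPM at jointing, so part of the later calls may follow this fall in the total. Consecutive steps share a library, and each stage is 1 library, so the difference between steps was not tested.

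**Figure D2:**
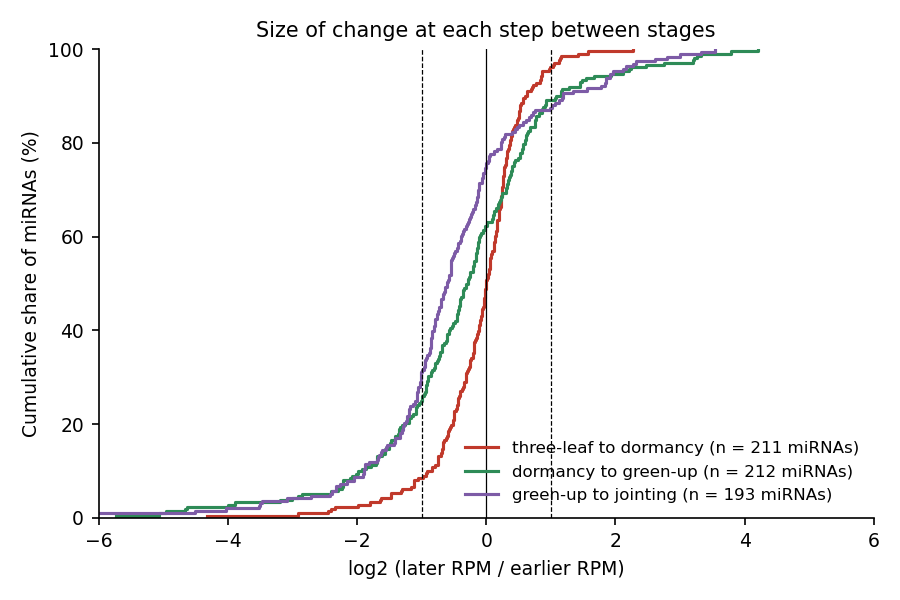
The x axis is the log2 ratio of later to earlier RPM and the y axis the cumulative share of miRNAs (%), for miRNAs listed in both libraries of each step and above the level filter, with 1 line per step and dashed lines at 2-fold. The line of the step from the three-leaf to the winter dormancy stage is the steepest around 0, with 87.7% of 211 miRNAs within 2-fold against 63.7% of 212 and 56.5% of 193 at the later steps.

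Of the families that time phase change, 8 of 9 listed miRNAs passed the level filter, 2 were higher and 1 was lower, beside 26.6% called over all 252. The median log2 change was -0.19, beside -0.01 over all. miR156 holds plants in the juvenile phase by repressing SPL transcription factors. miR156a-5p was at 294 RPM in three-leaf crowns and 640 RPM in dormant crowns, against 226.5 RPM during green-up and 74.2 RPM at jointing. Its level was thus the highest of the 4 libraries in winter, with a log2 change of 1.12 (interval 1.08 to 1.17). miR172, which acts later in the same pathway by repressing AP2-like factors, was within 2-fold in both listed entries. The 3p entry miR172e-3p was at 13.4 and 12.7 RPM (log2 -0.08) and the 5p entry miR172a-5p at 29.3 and 23 RPM (log2 -0.35). miR5200a-3p, whose target in Brachypodium is the florigen gene FT, was at 437.5 and 547.4 RPM (log2 0.32), also within 2-fold. Of the 3p entries of miR156 and miR157, miR157b-3p was within 2-fold, at 49.2 and 37.1 RPM (log2 -0.41), and the other 2 were listed in one of the libraries only. miR156d-3p was at 64.1 RPM in three-leaf crowns, 0 in winter, 0 at green-up and 10.1 RPM at jointing, while miR156h-3p was at 0, 39.4, 21 and 0 RPM at the same stages. The 3 entries summed to 113.3 and 76.5 RPM (log2 -0.57), within 2-fold.

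The auxin families had 7 of 8 listed miRNAs above the level filter, of which 0 were higher and 2 lower. Their median log2 change was -0.20. All 7 were listed in both libraries, where 12.3% were called over all miRNAs, beside 26.6% with entries at 0 included. With 7 members above the filter, this count of calls says little about the group. miR160a-5p, which represses the auxin response factors (ARFs) of the ARF10 and ARF16 group, was at 689.9 RPM in three-leaf crowns and 222.8 RPM in dormant crowns. It was at 1499 RPM during green-up and 1108.9 RPM at jointing, so that winter had the lowest value of the 4 libraries, and the log2 change into winter was -1.63 (interval -1.68 to -1.58). miR167a, which represses another set of ARFs (the ARF6 and ARF8 group), was at 2248.6 and 2945.5 RPM (log2 0.39). miR390a-5p, which starts the TAS3 siRNAs against further ARFs, was at 198.2 and 196.2 RPM (log2 -0.01). For miR393, the regulator of the TIR1 and AFB auxin receptors, the abundant 5p entry was at 287.6 and 282.2 RPM (log2 -0.03), and the scarce miR393b-3p was lower, at 11.5 and 5.3 RPM (log2 -1.12, interval -1.45 to -0.78). Within this group the called decrease was therefore in miR160a-5p and in a minor arm.

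The families of the meristem and of organ growth had 11 of 13 listed miRNAs above the level filter, with 1 higher and 3 lower, beside 10.3% and 16.3% over all miRNAs, and a median log2 change of -0.27. miR319b-3p, which represses TCP transcription factors of leaf growth, was at 451.4 RPM in three-leaf crowns and 114.5 RPM in dormant crowns, then 1049.7 RPM during green-up and 4558.3 RPM at jointing (log2 change into winter -1.98, interval -2.04 to -1.91). miR394a, which in Arabidopsis moves from the outer cell layer and represses the F-box gene LCR to keep the stem cells of the shoot, was at 43.1, 7.9, 79.5 and 201 RPM (log2 -2.45, interval -2.70 to -2.21). Both thus had their lowest value in winter and their highest at jointing, as single libraries. Other members of the group were within 2-fold, among them miR164a, which represses NAC boundary genes (2673.4 and 2353.8 RPM, log2 -0.18), and miR396b-5p, which represses growth-regulating factors (2094.3 and 1734.1 RPM, log2 -0.27). The other 2 calls rested on a 0. miR394b-3p was at 41 RPM in winter and at 0 in the other libraries, and miR165a-5p was at 102.3, 0, 45.1 and 4 RPM. Both were counted in these families by name alone. miR394b-3p was not near-identical to the listed miR394-3p by the overlap rule used further on. The study removed rRNA reads, and whether miR394b-3p or miR165a-5p also matches rRNA was not tested here. The value listed for miR165a-3p (2739.1 and 2394.1 RPM) was that of miR164a plus miR164b-3p in all 4 libraries and was not read as a level of miR165.

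The copper families had 7 listed miRNAs, 4 of them above the level filter, with 1 higher and 0 lower. Their median log2 change was 0.56. All 4 were listed in both libraries, where 12.3% were called over all miRNAs, beside 26.6% with entries at 0 included. With 4 members above the filter, this count of calls says little about the group. miR528-5p, a monocot miRNA whose targets in rice include ascorbate oxidase, had the largest change of the 8 miRNAs that were listed in both libraries and higher in winter. It was at 5.1 RPM in three-leaf crowns, 24.6 RPM in dormant crowns, 5.3 RPM during green-up and 4.1 RPM at jointing (log2 2.27, interval 1.96 to 2.57). Its other arm, miR528a-3p, was at 1.2 and 3.9 RPM and did not pass the level filter. miR398f-5p was at 42.2 and 76.7 RPM (log2 0.86) and miR398a-3p, which represses copper/zinc superoxide dismutases, at 76.3 and 91.7 RPM (log2 0.27). miR397a, a regulator of laccases, was at 30.7 and 35.2 RPM (log2 0.20), and miR408d was at 0 and 2.3 RPM. Summed over the 7, the copper families went from 155.5 to 234.4 RPM in winter and were at 24.9 RPM during green-up and 36.6 RPM at jointing.

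miR169 represses the NF-YA subunits of the CCAAT-binding factor. Of its 4 listed members, 2 passed the level filter, and these were listed in both libraries. Of the 2, 1 was higher, beside 10.3% over all miRNAs and 8 of the 211 listed in both libraries. With 2 members above the filter, this count says little about the family. miR169a-5p was at 50.3 RPM in three-leaf crowns, 134.9 RPM in dormant crowns, 5.3 RPM during green-up and 4.3 RPM at jointing (log2 1.42, interval 1.32 to 1.53). miR169g, which shares 18 consecutive bases with it, was at 229.1, 295.9, 41.2 and 90.1 RPM (log2 0.37, within 2-fold). Summed, the pair was at 279.4 and 430.8 RPM (log2 0.62), so that the call belonged to miR169a-5p rather than to the pair. Both were higher at the 2 stages before spring than after it in these libraries.

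The small monocot families had 7 listed miRNAs, 3 of them above the level filter, with 0 higher and 2 lower. Their median log2 change was -1.11. All 3 were listed in both libraries, where 18 of 211 were lower over all miRNAs, beside 16.3% with entries at 0 included. With 3 members above the filter, this count of calls says little about the group. The 2 lower miRNAs were the arms of miR530, a family best known from rice. miR530-3p was at 69.5, 13.7, 17.9 and 7.8 RPM (log2 -2.34, interval -2.53 to -2.16). miR530-5p was at 35.5, 16.4, 12 and 10.2 RPM (log2 -1.11, interval -1.30 to -0.93). The 3p share of the pair was 66.2% in three-leaf crowns and 45.5% in dormant crowns. Unlike miR160a-5p, miR319b-3p and miR394a, both arms were still below their three-leaf value at green-up and at jointing. miR1432-5p was at 17.8 and 9.9 RPM (log2 -0.85).

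No member of the remaining conserved groups was called, which with 2 to 4 members above the level filter per group and 12.3% called among all miRNAs listed in both libraries says little about them. The nutrient families had 3 of 4 miRNAs above the level filter, with miR395b of sulfate assimilation at 18.5 and 13.8 RPM (log2 -0.42), miR399b of the phosphate response at 97.1 and 95.3 RPM (log2 -0.03) and miR827, which targets SPX-domain genes, at 89.9 and 56.8 RPM (log2 -0.66). The families with scarecrow-like (miR171) or MADS-box (miR444) targets had 4 of 5 above the filter and a median log2 change of -0.20, and miR444b.1 was at 1211 and 1107.2 RPM (log2 -0.13). Families directed against NLR resistance genes had 3 of 6 above the filter, with miR9863a-3p, known from barley, at 545.9 and 657.2 RPM (log2 0.27) and miR2118c at 11.9 and 13.9 RPM (log2 0.22).

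**Figure D3:**
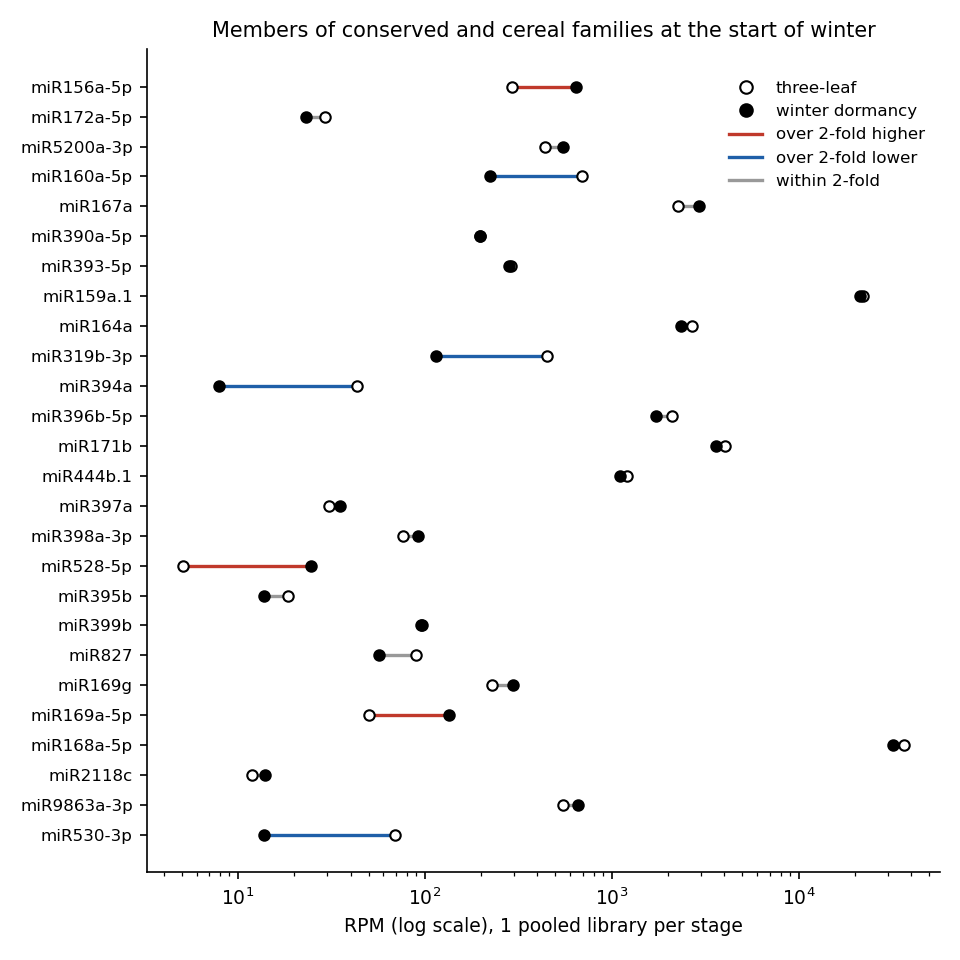
The x axis is RPM on a log scale and each line joins 1 miRNA's value in the three-leaf library (open circle) to its value in the winter dormancy library (filled circle), 1 pooled library per stage. Most pairs nearly coincide, whereas miR156a-5p, miR528-5p and miR169a-5p lie over 2-fold to the right in winter and miR160a-5p, miR319b-3p, miR394a and miR530-3p over 2-fold to the left.

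The wheat miRBase families, those numbered miR9652 to miR9679 and miR9772 to miR9783, had 29 of 41 miRNAs above the level filter, of which 0 were higher and 3 lower, beside 10.3% and 16.3% over all miRNAs, with a median log2 change of -0.20. miR9774 was at 44.4, 15.9, 4.9 and 14.5 RPM (log2 -1.48) and miR9653a-3p at 17.9, 8.6, 27.3 and 98.3 RPM (log2 -1.06, interval -1.32 to -0.79). miR9783 was at 39.5 RPM in three-leaf crowns and at 0 in the other libraries. The call of miR9653a-3p was lost when the libraries were scaled to the summed RPM of the listed miRNAs. The nearest misses were miR9669-5p, at 450.2 and 889.1 RPM (log2 0.98, interval 0.95 to 1.02), and wheat_miR2129, at 12.04 and 23.67 RPM (log2 0.98), and both passed under that scaling.

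Families whose sequences resemble short transposons, such as miR1117 to miR1139, had 31 of 34 miRNAs above the level filter, with 2 higher and 4 lower, beside 26.6% called over all miRNAs, and a median log2 change of 0.14. The 4 that were lower were all at 0 in winter. Of the 26 listed in both libraries, 25 (96.2%) were within 2-fold, beside 87.7% over all, and miR1133 was higher, at 33.1 and 73.9 RPM (log2 1.16, interval 1.03 to 1.29), then 86.2 RPM at green-up and 0 at jointing. The 66 wheat_miRNAs, entries the study assigned from wheat reads rather than from miRBase, had 46 above the filter, 6 higher and 4 lower, beside 26.6% called over all, and a median log2 change of 0.11. Of these calls, 5 of the higher and 3 of the lower rested on a 0. Their summed RPM was 3154.4 and 5063.6 (log2 0.68), and without wheat_miR1560 it was 3154.4 and 3546.7 (log2 0.17), so 1 entry made most of the gain. wheat_miR450 was at 18.96 and 38.62 RPM (log2 1.03, interval 0.85 to 1.20) and wheat_miR810 at 17.07 and 7.65 RPM (log2 -1.16).

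The remaining called miRNAs belong to families with no role given here. The study removed reads of rRNA and tRNA, and whether any of these sequences also matches rRNA or tRNA was not tested here. Higher in winter were miR1023a-3p, miR5060 and miR7782-3p. miR1023a-3p was at 169.4, 506.2, 576.7 and 0 RPM from the three-leaf to the jointing stage (log2 1.58, interval 1.52 to 1.63). miR5060 was at 12.7 and 28.1 RPM (log2 1.15, interval 0.94 to 1.36). miR7782-3p was at 26.9 and 55.4 RPM (log2 1.04, interval 0.90 to 1.19). Lower in winter, miR9484 had the largest change among miRNAs listed in both libraries. It was at 151.7 RPM in three-leaf crowns, 7.6 RPM in dormant crowns, 105.3 RPM during green-up and 75.5 RPM at jointing (log2 -4.32, interval -4.56 to -4.09), so the dip was in the winter library alone. miR894 was at 234.3 and 67 RPM (log2 -1.81), miR5077 at 68 and 12.9 RPM (log2 -2.40), miR2199 at 167.9 and 67.1 RPM (log2 -1.32), miR5139 at 134.4 and 54.5 RPM (log2 -1.30) and miR1846a-5p at 79.6 and 36.6 RPM (log2 -1.12). Both arms of miR3630 were lower, the 5p arm at 27.1 and 3.6 RPM (log2 -2.91) and the 3p arm at 7.2 and 2.6 RPM (log2 -1.47), as was miR5368, at 8.4 and 2.7 RPM (log2 -1.64). miR3630-5p and miR5368 were at 0 in both spring libraries.

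**Figure D4:**
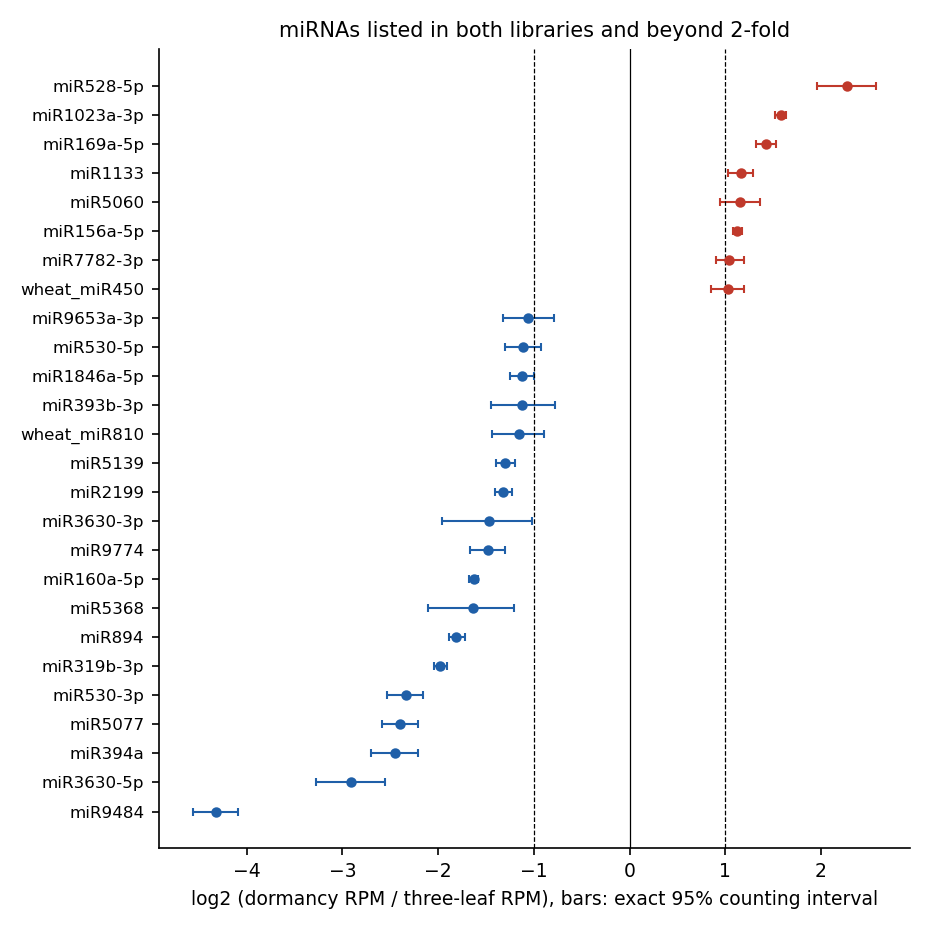
The x axis is the log2 ratio of winter dormancy RPM to three-leaf RPM for the 26 miRNAs listed in both libraries and beyond 2-fold, with exact 95% counting intervals as bars and dashed lines at 2-fold. miR528-5p (2.27) and miR9484 (-4.32) lie at the ends, and the intervals of 18 miRNAs lie wholly beyond the dashed lines.

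Summed, the 8 higher miRNAs listed in both libraries were at 610.5 RPM in three-leaf crowns and 1501.7 RPM in dormant crowns, and the 18 lower ones at 2258.9 and 667.4 RPM. Both sums were small beside the 142826.1 and 135687.5 RPM of all listed miRNAs.

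Of the calls that rested on a 0, 18 were higher and 23 lower in winter. The 18 had a median of 25.35 RPM in the winter dormancy library (range 5.8 to 1516.89), 3 exceeded 100 RPM, and they summed to 2.06% of the RPM of that library. The 23 had a median of 12.6 RPM in the three-leaf library (range 6.4 to 865.3), 4 exceeded 100 RPM, and they summed to 1.13%. wheat_miR1560 was at 0 RPM in three-leaf crowns, 1516.89 RPM in winter, 0 at green-up and 277.01 RPM at jointing, which is at least 10959-fold higher in winter if the 0 stands for 3 reads or fewer. miR8135 was at 760.8 RPM in winter and at 0 in the other libraries (at least 5497-fold on the same condition). miR5240 had the opposite pattern to wheat_miR1560, at 865.3, 0, 1249 and 0 RPM (at least 5923-fold lower). miR5175a, at 126.5, 0, 199.9 and 0 RPM, was listed at the same stages as miR5240, and miR7512 was at 117.4 RPM in three-leaf crowns alone. wheat_miR1826 was at 55.81 RPM in winter and 28.51 RPM at green-up and at 0 otherwise. What set these entries to 0 was not tested.

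Reads were matched to known miRNAs with fewer than 2 mismatches by the study, so entries with nearly the same sequence can exchange reads. By an overlap of at least 18 bases with at most 2 mismatches, 67 of the 348 miRNAs fell into 26 groups, and 15 of the 67 called miRNAs lay in such groups. Mismatches were counted over the whole aligned stretch, ends included. miR169a-5p and miR169g were therefore not grouped with each other, although they share 18 consecutive bases. For 6 of the 15 the group as a whole was within 2-fold. miR5387a, at 91.8 RPM in three-leaf crowns and 0 in winter, and miR5387b, at 0 and 119.1 RPM, differ by G16A, counted from 1 at the 5′ end with the base of miR5387a first. Their sum was 91.8 and 119.1 RPM (log2 0.38), so the calls were opposite while the sum was within 2-fold. miR5175a belonged to a group of 9 entries, among them miR1122b-3p, miR5049d and miR6224a-3p, whose sum was 1160.4 and 1224.4 RPM (log2 0.08). miR1133 with miR1127a and miR7697-5p summed to 401.3 and 554.7 RPM (log2 0.47).

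The sums of other groups were past 2-fold as well. miR894 and miR5077, which share 18 bases, were at 302.3 and 79.9 RPM together (log2 -1.92). miR1023a-3p and miR5241a share 19 bases, and miR5241a, at 48.2 RPM, was listed in winter alone; their sum was 169.4 and 554.4 RPM (log2 1.71). By the same rule miR5139 was grouped with miR8155 (140.3 and 64.6 RPM, log2 -1.12). The group of miR7782-3p and miR1871 was within 2-fold instead (37 and 69.5 RPM, log2 0.91). A set of 5 entries, these and miR1511, that share a run of 13 bases was chosen after their values were seen. With the shared run in capitals, they read:
miR5139: cgaaaccuGGCUCUGAUACCA
miR8155: ucgaaaccuGGCUCUGAUACCA
miR7782-3p: accuGGCUCUGAUACCAcuguugg
miR1871: aGGCUCUGAUACCAcuguuggguu
miR1511: aaaaccuaGGCUCUGAUACCAcug
The whole of miR5139 lies inside miR8155, yet miR5139 was lower in winter (134.4 and 54.5 RPM) while miR8155 was at 5.9 and 10.1 RPM, miR7782-3p at 26.9 and 55.4 RPM, miR1871 at 10.1 and 14.1 RPM and miR1511 at 10.4 and 17.1 RPM. Over the 5 entries the sum was 187.7 and 151.2 RPM (log2 -0.31), and the share of miR5139 in it was 71.6% in three-leaf crowns and 36% in winter.

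**Figure D5:**
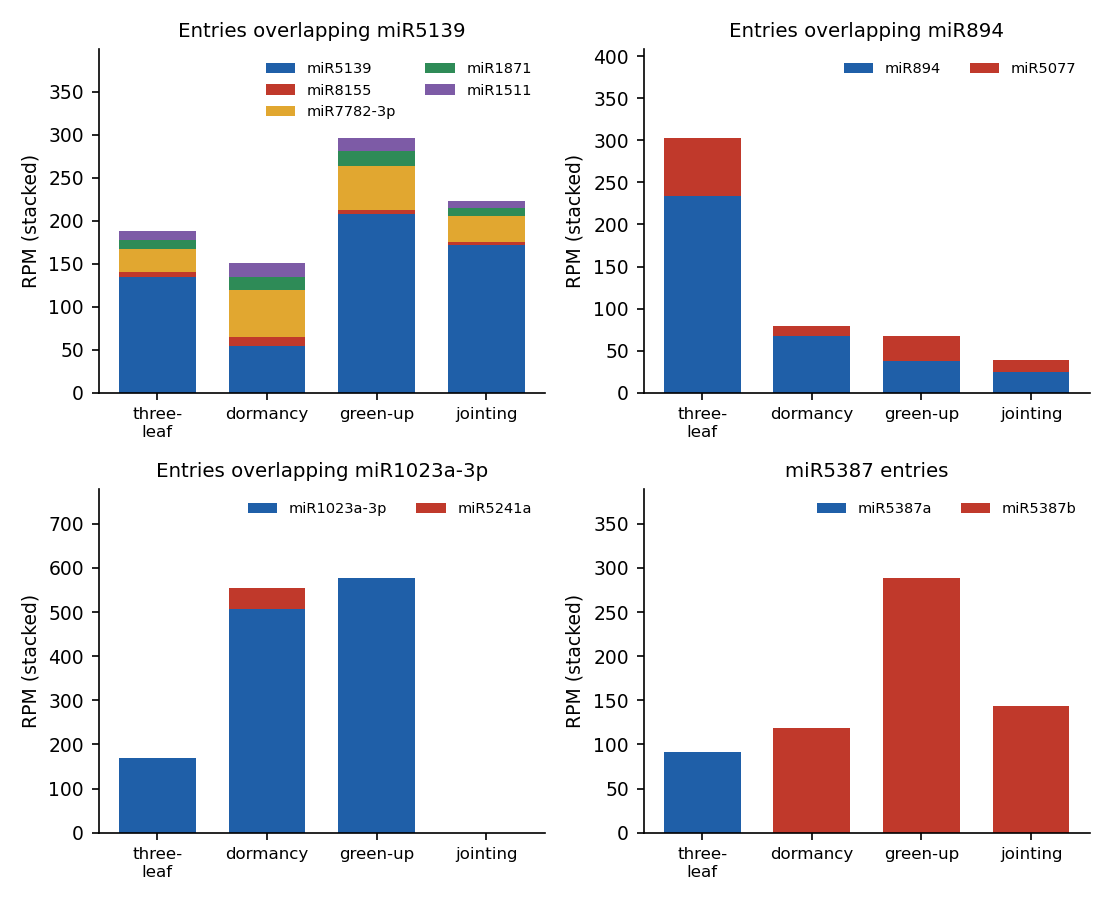
Each panel stacks the RPM (y axis) of entries with overlapping sequences in the 4 libraries (x axis), 1 pooled library per stage. The sums overlapping miR5139 (187.7 and 151.2 RPM) and of miR5387 (91.8 and 119.1 RPM) stay within 2-fold into winter while their entries shift, although miR5139 with miR8155 alone is past 2-fold (140.3 and 64.6 RPM) and the 5 entries were chosen after their values were seen, whereas those of miR894 with miR5077 and of miR1023a-3p with miR5241a are past 2-fold.

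A 5p and a 3p entry of the same family were set side by side in 17 pairs, which are not all such pairs listed. Of the 17, 6 carried 1 entry name. The other 11 joined differently named entries (such as miR167a and miR167e-3p) that may come from different loci. Pairs of miR5181, miR5568 and miR6224a were left out. Of these, miR5568f-5p (log2 0.22) and miR5568g-3p (-0.50) had opposite signs, while miR5181c-5p (0.34) and miR5181-3p (0.17) had the same sign. The counts below hold for the 17 pairs alone. Both entries were within 2-fold in 12 pairs, and their counting intervals lay apart in 14. The log2 changes differed by more than 1 in 4 pairs, namely miR319 (3p minus 5p -1.49), miR393 (-1.09), miR530 (-1.23) and miR3630 (1.44). In 5 pairs, 2 of them under 1 entry name, the log2 changes had opposite signs with intervals apart, as for miR5200 (5p 157.3 and 127.7 RPM, log2 -0.30; 3p 437.5 and 547.4 RPM, log2 0.32) and miR9863a (5p 93.8 and 68.4 RPM, log2 -0.46; 3p 545.9 and 657.2 RPM, log2 0.27). These intervals leave out the spread between plants, which the pooled libraries do not show.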

How the data were processed

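Crown small RNA of wheat was sequenced at 4 stages, 1 pooled library each, on a BGISEQ-500 instrument. Per the methods of the study, reads of 18 to 30 nt were kept. Reads of rRNA, tRNA, small nuclear RNA, small nucleolar RNA and repeats were removed with SOAP. Known miRNAs were assigned by BLASTN to miRBase with fewer than 2 mismatches. Reads were also aligned to miRNAs that the authors had found earlier in wheat leaves, the source of most wheat_miRNAs. MIREAP was run on the sequences that remained. Versions of SOAP, BLASTN and MIREAP are not given in the sources used here. The deposited values are RPM, which the authors computed per 1000000 mapped reads; the column heads say TPM, and values have 1 decimal for known miRNAs or 2 for wheat_miRNAs. Depth was recovered as the number of mapped reads that turned the 2-decimal values into whole reads, and set the value of 3 reads and the intervals.

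The log2 ratio was taken on RPM as deposited, a 0 was set to 3 reads, and calls needed more than 2-fold and more than 5 RPM in at least 1 library. With 1 library per stage no p-value was computed. The members and lists were chosen with earlier results of these data known. Named were all called miRNAs listed in both libraries, the 5 highest in each direction and the conserved ones among calls with a 0, near-identical partners, the 10 most abundant, and the most abundant of each conserved family. miR9783, miR7484m, miR9767, miR9669-5p, wheat_miR2129, miR1432-5p, miR1511, miR398f-5p, miR157b-3p, miR172e-3p, miR394-3p and arm pairs were named after their values were seen. Alternatives covered the scaling, the fold threshold, the level filter, the value of a 0, 1 RPM added to both libraries and summed near-identical entries. The scripts were tested on simulated data. Positions in the wheat genome, qRT-PCR and RACE assays were not analysed here. Python 3.11.15, numpy 2.4.6, scipy 1.17.1 and matplotlib 3.10.9 were used.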

Additional observations from a re-analysis of the deposited data

Results flagged for a closer look

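The comparison leaves out miRNAs that were at 0 in both the three-leaf and the winter dormancy library. Of these 36, 16 exceeded 5 RPM at green-up or jointing, a signal in libraries the comparison does not use. miR6249a was at 111.8 RPM during green-up and 1303 RPM at jointing. miR2111a-3p, of a family of the phosphate response, was at 568.5 RPM at jointing and at 0 in the other libraries. miR5205a was at 82.6 RPM during green-up and 39.9 RPM at jointing.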

How the results depend on the processing

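Each of the counts of 26 higher and 41 lower miRNAs stayed within 1.5 times its value under the other value given to a 0 (1 read, 10 reads or, added after seeing the data, the smallest listed value), a pseudocount of 1 RPM, 3 scalings, a 4-fold threshold, intervals wholly beyond 2-fold and summed near-identical entries. Without miRNAs at 0 the counts were 8 and 18, with no level filter the higher count was 47, with more than 20 RPM the lower count was 22, and with a 1.5-fold threshold they were 40 and 62. By construction, these settings admit fewer or more miRNAs or move the threshold. The scalings shifted all values by 0.07, 0.04 and -0.02 (log2) and gave 28 higher and 40 lower, 28 and 41, and 26 and 41. When near-identical entries were summed, miR5175a (0.08) and miR5387a (0.38) changed direction. Under that sum 16 other named miRNAs moved and 4 did not. Those that moved include miR8155 (0.78 alone, -1.12 summed) and miR1122b-3p (-0.01 and 0.08), which also changed direction. The bounds of miRNAs at 0 depend on the reads that a 0 stands for. No paired analysis was possible because each stage is 1 pooled library. Depth limits the calls of miRNAs near 5 RPM, which rest on the fewest reads.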

Other observations

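The length of a miRNA and its first base, which the comparison did not use, were set beside the calls as description. Of miRNAs of 20 to 22 nt, 147 of 190 (77.4%) that passed the level filter were within 2-fold, and of those of 23 to 24 nt, 38 of 62 (61.3%). Among miRNAs listed in both libraries the shares were 87.5% and 88.4%, so the gap lay in the entries at 0, which made 22 of the 190 and 19 of the 62. By first base, U had 81.1% within 2-fold, A 74.6%, C 65% and G 57.9%, and among miRNAs listed in both libraries 90%, 83.9%, 83.9% and 91.7%.

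Over the 4 libraries, 200 miRNAs were listed in every one. Listed at the three-leaf and green-up stages but at 0 in winter and at jointing were 11 miRNAs, 8 of them above 5 RPM in a library, among them miR5240 and miR5175a. The reverse, listed in winter and at jointing only, held for 6, 3 of them above 5 RPM, among them wheat_miR1560.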
